A study of Mus musculus with 12 samples.

Results

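The comparison described here set samples labelled as sorted neurons after stroke against those of adult control, across all genes of the deposited count table. It compared 6 of the 12 libraries of the series, all of which entered the fit so that the groups share 1 estimate of the spread: stroke 4, 5 and 6 (labelled PT) and adult control 1, 2 and 3 (labelled WT). The table held 23253 genes, and 17909 of them had enough counts to be tested. Both groups came from adult C57BL/6 mice, and both were labelled as cortical neurons collected by fluorescence-activated sorting. Stroke mice were given rose bengal, a photosensitive dye, at 0.2 ml per 25 g of body weight. After 5 min the exposed skull was lit with a cold light source for 15 min, which closes vessels where the light falls and leaves a focal lesion of 2 mm diameter. Adult control is labelled only as control, and no sham operation is named. The time between stroke and collection, the marker used for the sort, the sex of the mice and the number of mice per library are not stated in the labels. P-values therefore measure the spread between the libraries of each group, pooled over the fit, which may be technical in part. The remaining libraries were 3 labelled P4 and 3 from stroke mice labelled with GDF10 siRNA, a short RNA meant to lower the secreted factor GDF10, whose role in axonal sprouting the series addresses.

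After a cortical infarct, neurons in the tissue around the lesion can grow new axon branches, while the glia around them react. Astrocytes, which clear glutamate and buffer potassium, lose part of their resting programme and switch on injury genes. Oligodendrocytes, which make myelin, can take on an injury state with immune genes, and their precursors divide and mature. Type I interferon, made when nucleic acids are sensed in the cytosol, acts through transcription factors of the STAT and IRF families, among them STAT2 and IRF9, on a short promoter sequence, the interferon-stimulated response element, and switches on antiviral genes.

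The label of sorted neurons was set against marker genes. In all 6 libraries, 25 markers of mature oligodendrocytes took far more of the counts than 16 pan-neuronal markers. The oligodendrocyte share was 5.08, 5.66 and 10.5% in adult control 1, 2 and 3 and 9.23, 8.62 and 7.13% in stroke 4, 5 and 6. For pan-neuronal markers the share was 0.694, 0.241 and 0.526% in the controls and 0.256, 0.230 and 0.199% in stroke. Levels of single genes are given below in CPM, the TMM-scaled level per library. The libraries thus hold glial as well as neuronal RNA, so a value below is a value of the sorted sample and not of neurons alone. In such bulk samples, fewer cells of a type and less RNA per cell cannot be told apart.

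**Figure D1:**
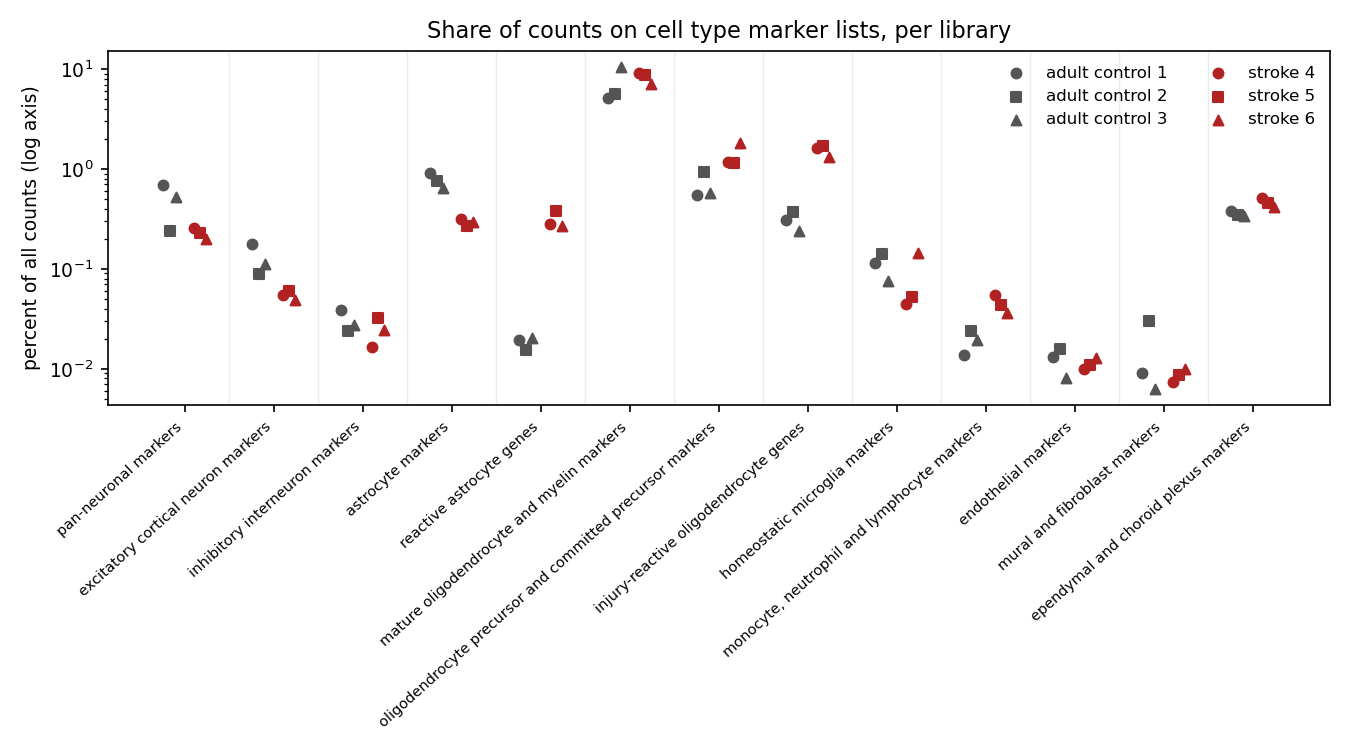
Percent of all counts (log axis) that fell on each list of cell type markers, with 1 point per library, adult control in grey and stroke in red. Mature oligodendrocyte markers lie highest in every library, at 5.08% or more. The summed astrocyte share lies lower in every stroke library than in any control. Slc1a2 alone is a large part of that share in the controls. It had 120201, 126024 and 39377 counts in adult control 1, 2 and 3 and 19509, 12124 and 11568 in stroke 4, 5 and 6.

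The adult control libraries were less alike than the stroke libraries. The Pearson correlation of log2 CPM across genes, which are not independent replicates, was 0.681 to 0.902 within adult control and 0.900 to 0.948 within stroke. Adult control 3 had the fewest counts, 10517638, while the other 5 libraries had 18246470 to 36009796. It correlated at 0.668 to 0.753 with every other library, and it was also the only one of the 6 with a sizeable level of Xist, an RNA of female cells (193 CPM, against 2.50 to 6.50 in the rest). Ddx3y, a gene of the Y chromosome, was also highest there, at 474 CPM against 109 to 190 CPM. Adult control 2 correlated more closely with stroke 4 and 5 (0.935 and 0.931) than with adult control 1 (0.902). The ribosomal RNA precursor, entered as 45S, made up 2.08% of counts in adult control 2 and 2.11 to 2.44% in stroke, compared with 0.427% and 0.0964% in adult control 1 and 3. Because control libraries are numbered 1 to 3 and stroke libraries 4 to 6, a batch that follows the numbers cannot be told apart from the group. These differences were not tested as a source of the results.

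Of the 17909 tested genes, 126 were called changed with edgeR's quasi-likelihood test at a Benjamini-Hochberg adjusted p under 0.05, which is 0.704%. Of these, 87 were higher in stroke (0.486% of those tested) and 39 were lower (0.218%). Both shares are the background for the counts of called list members below. All lists were chosen with earlier results of these data known, so those counts describe the lists and do not test them. The median log2 fold change was 3.09 among the higher genes, -2.78 among the lower genes and -0.08 over all tested genes. In all 126 called genes the 3 stroke libraries lay outside the range of the 3 controls. That alone is common in these data: it held for 3590 tested genes, or 20%, with 1978 higher in stroke (11%) and 1612 lower (9%). An unadjusted p under 0.05 was reached by 2852 genes, of which 978 were higher and 1874 lower. Against adult control 2 alone, the control most like the stroke libraries, all 87 higher genes had a stroke mean more than 2-fold above it, and 37 of the 39 lower genes a stroke mean more than 2-fold below it. The medians on that scale were 2.85 and -2.40. Adult control 2 was part of the fit that selected these genes. Such gaps therefore follow in large part from the selection, and they do not test the part of that library. The call depended on which libraries were fitted: 22 of the 126 genes, 17 higher and 5 lower, kept it in each of the 6 fits that left out 1 library. Without adult control 1, 30 of the 126 were still called. The number was 125 without adult control 2, 93 without adult control 3, and 31 to 35 without 1 of the stroke libraries. When the 45S library class (above or below 1% of counts) was added to the fit, 38 of the 126 kept their call.

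**Figure D2:**
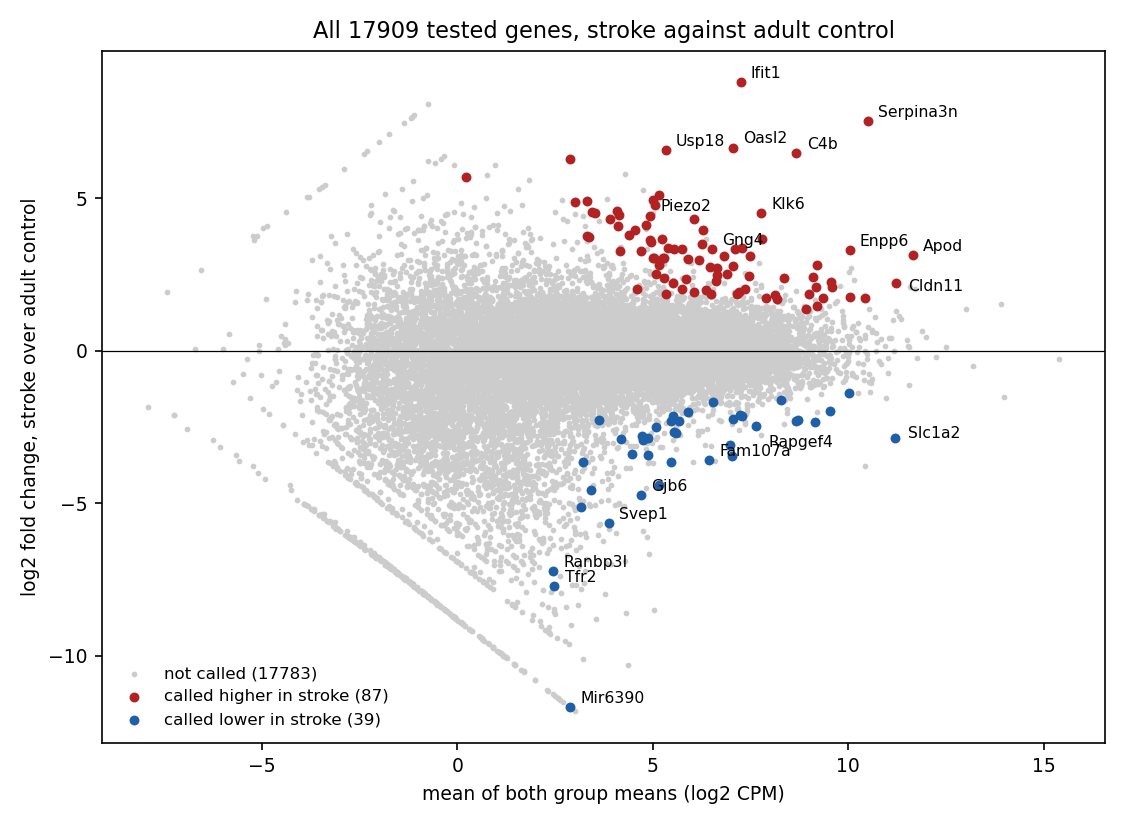
Log2 fold change of stroke over adult control against the mean level in log2 CPM, with 1 point per tested gene. The 87 genes called higher are in red and the 39 called lower in blue, and Ifit1, Serpina3n, Oasl2, Usp18 and C4b stand highest among the called genes at log2 fold changes of 6.47 to 8.80.

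By count, interferon-induced genes were the group with the most called members. As a share of tested members, antiviral effectors (26.7%) came after astrocyte markers (37.5%, called lower) and injury genes of oligodendrocytes (35%, called higher). Among 45 tested antiviral effectors, the proteins that block viral replication, 12 rose and none fell, against a background of 0.486% called higher. Their median log2 fold change was 2.39, and 42 of the 45 had a positive value. A positive difference with no overlap between the groups held for 32 of the 45, where 11% of all tested genes have one. The 31 tested interferon receptors, signalling factors and nucleic acid sensors had 5 that rose and none that fell (median 0.96), and the 16 interferon-inducible GTPases, which attack the vacuoles of intracellular pathogens, had 3 that rose and none that fell (median 2.96). Several of these genes were chosen for the lists with an earlier analysis of these data known, so the counts describe them and do not test them. Without 1 library, 4 to 16 of the 45 effectors were called, fewest without stroke 5, and 6 were called with the 45S library class in the fit. Of the receptors, signalling factors and sensors, 2 were called without adult control 1 or any 1 stroke library, and 3 with the 45S library class.

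Ifit1, which binds foreign RNA caps (chromosome 19, 34640889 to 34650009, mm10), was at 0.793, 0.969 and 0 CPM in adult control 1, 2 and 3. In stroke 4, 5 and 6 it was at 248, 267 and 392 CPM. The raw counts were 20, 39 and 0 against 7170, 8329 and 7223, so the controls were close to silent and every stroke library was high. The log2 fold change was 8.80 (SE 0.76, edgeR adjusted p = 9.73e-05), the largest rise of the called genes. Oasl2, a relative of the oligoadenylate synthetases (chromosome 5, 114896926 to 114912245), was at 0.555, 5.02 and 2.05 CPM in the controls and at 317, 265 and 206 CPM in stroke, a rise of 6.66 (SE 0.70, edgeR adjusted p = 0.000415). Usp18, which removes ISG15 and damps the interferon receptor, went from 0.634, 1.64 and 0 CPM to 88.6, 74.1 and 75.6 CPM, a rise of 6.57 (SE 0.93, edgeR adjusted p = 0.00435). Cmpk2, a mitochondrial nucleotide kinase that sits next to Rsad2 on chromosome 12, went from 4.32, 7.88 and 10.4 CPM to 81.0, 76.5 and 72.4 CPM (3.35, SE 0.45). These 4 genes kept their call whichever single library was left out.

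The other 8 effectors called were Mx1 (6.30), Rtp4 (4.94), Rsad2, or viperin (4.77), Mx2 (4.45), Ifit3 (4.33), Lgals3bp (3.96), Dtx3l (3.28) and Zc3hav1 (2.39), each of which lost its call in at least 1 of the 6 fits. Mx1 and Mx2, GTPases that trap influenza viruses, are annotated as transcribed pseudogenes in this strain's genome, and Mx1 had 13 counts in all controls together against 1146 in stroke. Ifit3 was at 4.92, 8.82 and 5.13 CPM in the controls and at 91.9, 137 and 151 CPM in stroke. Its neighbour I830012O16Rik, which RefSeq now names Ifit3b, rose by 3.95, and reads of these near-identical genes may be split between them. The effector list holds this neighbour only under the newer name, so the counts of tested and called effectors leave it out. Isg15, the ubiquitin-like modifier, was at 0.159, 0.0994 and 0 CPM against 4.73, 2.53 and 2.39 CPM, and did not pass (5.01, SE 1.36, edgeR adjusted p = 0.114). Of the 3 members with a negative value, Oas3 was at 0.515, 0.0745 and 47.9 CPM in the controls, so that its mean rests on adult control 3, and none of the 3 passed.

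In the signalling chain above these effectors, transcription factors and RNA sensors were among the genes that rose. Stat2, which carries the signal of the type I receptor (log2 fold change 1.92, SE 0.36, edgeR adjusted p = 0.0243), went from 34.5, 25.9 and 22.8 CPM in adult control to 92.7, 117 and 105 CPM in stroke. Its DNA-binding partner Irf9 (2.81, SE 0.54) went from 4.88, 7.48 and 14.6 CPM to 67.0, 47.1 and 73.8 CPM. The RNA sensors Ddx58, or RIG-I (3.01, SE 0.43), and Ifih1, or MDA5 (3.02, SE 0.57), also rose. Ddx58 went from 11.6, 14.3 and 13.2 CPM to 81.7, 104 and 130 CPM. Ddx58 kept its call in all 6 fits with 1 library left out, and Stat2, Irf9 and Ifih1 did not. The receptor genes had small differences: Ifnar1 stood at 49.8, 59.8 and 58.2 CPM against 74.4, 55.6 and 72.6 CPM (0.27, SE 0.32), and Ifngr1 had a value of 0.23 (SE 0.47). Among the GTPases, Irgm2 (3.64, SE 0.51) went from 5.63, 4.05 and 3.76 CPM to 49.2, 58.0 and 61.1 CPM, and Gbp6 (4.57, SE 0.66) from 1.23, 1.61 and 1.25 CPM to 31.7, 25.7 and 40.8 CPM. Both kept their call in all 6 fits, while Gbp7 (3.51, SE 0.68) lost it in 5.

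The promoters of these genes were read from RefSeq (GRCm38.p6), from 250 bases before to 50 bases after each annotated start of a gene. They were searched on both strands for the core of the interferon-stimulated response element, GAAANNGAAA. A gene counted as holding this motif if any of its starts did, so genes with more starts had more sequence searched. Of 27025 genes with a promoter in that table, 3.99% held it. Of the genes with a matched promoter, 12 of the 61 called higher (19.7%) and 2 of the 29 called lower (6.9%) held it. Among the called members of the 3 interferon lists it was in 8 of 14 (57.1%), and among the other genes called higher in 4 of 47 (8.51%). Of the interferon list members that were tested but not called, 21 of 54 held it (38.9%). A match is a description of the sequence and not evidence of binding. The stretches below are shown because they place the motif, or its reverse complement, in the promoters of called genes named here. They are written 5′ to 3′ on the gene's strand, with the motif in capitals.

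Ifit1, chr19:34640760-34640838, plus strand: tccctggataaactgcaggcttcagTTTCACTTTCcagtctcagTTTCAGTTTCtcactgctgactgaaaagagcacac
Ifit3, chr19:34583348-34583441, plus strand: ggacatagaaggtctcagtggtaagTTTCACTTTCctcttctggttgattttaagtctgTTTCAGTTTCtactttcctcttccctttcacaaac
Rsad2, chr12:26456538-26456597, minus strand: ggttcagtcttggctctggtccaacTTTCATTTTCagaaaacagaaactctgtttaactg
Gbp7, chr3:142530258-142530317, plus strand: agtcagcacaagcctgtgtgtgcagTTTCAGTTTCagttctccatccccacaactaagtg
Irgm2, chr11:58214888-58214947, plus strand: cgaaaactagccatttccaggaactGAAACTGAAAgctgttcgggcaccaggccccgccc
Stat2, chr10:128270251-128270310, plus strand: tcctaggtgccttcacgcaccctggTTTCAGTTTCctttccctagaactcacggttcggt
Cxcl10, chr5:92349068-92349127, minus strand: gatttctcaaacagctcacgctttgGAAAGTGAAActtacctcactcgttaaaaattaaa

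Ifit1 and Ifit3 each carried 2 copies within this window, and the other genes shown carried 1. The Ifit3 stretch lies past the first base of the gene, 34583119, and so belongs to a later annotated start. For 3 further motifs the genes called higher were close to the background of all genes with a promoter or rested on few genes. TGANTCA, the site of AP-1 factors, was held by 9.84% of them against 8.97% of all. TTCNNNGAA, the core of the STAT site, was held by 6.56% against 9.55%, and the NF-kappaB site by 1 gene, Csf1. No promoter of Usp18 was in the table.

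Antigen presentation by MHC class I, which interferon raises in many cells, had 2 of 20 tested members called higher and none lower. All 20 members had a positive log2 fold change, with a median of 1.59. H2-D1 was at 14.6, 55.1 and 11.06 CPM in adult control and at 229, 322 and 294 CPM in stroke (3.38, SE 0.55), and H2-K1 rose by 2.28. None of the 20 was called without adult control 1, 1 without any 1 stroke library or with the 45S library class, and 5 without adult control 2. Reads of these heavy chain genes can be shared with close paralogs. B2m, the light chain, was at 222, 225 and 436 CPM in the controls and at 1683, 1678 and 1921 CPM in stroke, with no overlap, but did not pass (2.58, SE 0.63, edgeR adjusted p = 0.0827). MHC class II, the hallmark of professional antigen-presenting cells, had none of its 7 members called, and Cd74 stood at 1.74, 3.48 and 0.798 CPM against 9.80, 0.961 and 1.90 CPM. The checkpoint ligand Cd274, or PD-L1, rose by 3.65, from 8.64, 1.29 and 6.96 CPM to 53.1, 72.4 and 84.8 CPM.

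Complement gave a single large change. C4b, a core component of the classical pathway (chromosome 17, 34728139 to 34743902), was at 5.83, 12.9 and 8.44 CPM in adult control and at 924, 865 and 625 CPM in stroke, a log2 fold change of 6.47 (SE 0.67, edgeR adjusted p = 0.000415). It was the 1 called gene of 22 complement components and regulators, whose median was -0.11. C1qb and C1qc, the initiating subunits made by microglia, were at 17.3 to 71.6 and 7.87 to 47.0 CPM in the controls and at 48.6 to 177 and 36.4 to 152 CPM in stroke, with stroke 6 the highest. C3 was at 1.90, 0.397 and 1.94 CPM against 5.32, 3.17 and 7.60 CPM, and did not pass.

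No marker on the immune cell lists was called. Of 17 homeostatic microglia markers, none was called and 11 had a negative value (median -0.39). Their summed share of counts was 0.116, 0.142 and 0.0762% in adult control and 0.0441, 0.0525 and 0.143% in stroke, so the groups overlapped and stroke 6 was the highest. P2ry12, a receptor that resting microglia lose on activation, was at 177, 129 and 353 CPM in the controls and at 22.6, 28.7 and 73.6 CPM in stroke (-2.40, edgeR adjusted p = 0.129). Of 16 markers of monocytes, neutrophils and lymphocytes, 11 were tested and none was called. Their summed share was 0.0136 to 0.0240% in the controls and 0.0362 to 0.0548% in stroke, so every stroke library lay above every control. In stroke most of that share was Lyz2, a myeloid lysozyme, with 856, 4281 and 104 counts against 15113, 10827 and 4586 (2.87, SE 0.90, edgeR adjusted p = 0.158), while Ly6c2 of inflammatory monocytes had 1 count in all 6 libraries. The part of these cells in the interferon and MHC results was not tested.

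Genes of activated phagocytes and lipid handling rose in part. Of 28 tested, 5 rose and 1 fell, with a median of 1.11, and 1 rose without adult control 1, stroke 4 or stroke 5. Fabp5, a fatty acid carrier, went from 29.2, 29.5 and 20.4 CPM to 149, 209 and 157 CPM (2.70, SE 0.33, edgeR adjusted p = 0.00147) and kept its call in all 6 fits with 1 library left out. Gpnmb (5.12) went from 1.31, 3.90 and 0.456 CPM to 61.9, 61.6 and 84.6 CPM, and Spp1, or osteopontin (4.12), from 3.21, 2.14 and 4.11 CPM to 68.6, 76.5 and 16.9 CPM. Ctsb, a lysosomal protease (2.09), and Cd63, a lysosomal tetraspanin (1.86), also rose. Mertk, the receptor with which phagocytes and astrocytes take up dying cells and synapses, fell by 2.29 on the log2 scale, from 69.6, 115 and 69.1 CPM to 20.1, 17.1 and 14.7 CPM.

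Chemokines and NF-kappaB target genes gave single calls. Cxcl10, an interferon-induced chemokine, was the 1 called gene of 20 chemokines and receptors (4.91, SE 1.00), at 0.872, 0.795 and 0.114 CPM against 6.11, 10.31 and 41.4 CPM. Ccl2, which draws monocytes, was at 5.31, 6.36 and 11.2 CPM against 6.08, 11.7 and 24.1 CPM, and the groups overlapped. Cebpd, a transcription factor of the acute phase response, was the 1 called gene of 26 NF-kappaB cytokines and feedback genes (4.55), at 0.872, 1.64 and 0 CPM against 22.1, 21.4 and 19.3 CPM.

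Astrocyte markers fell in part. Of 16 astrocyte markers, 6 fell and none rose, against a background of 0.218% called lower, and the median was -1.8. Without adult control 3, 4 members were called, without adult control 1 there were 2, without 1 of the stroke libraries 1 or 2, and with the 45S library class in the fit 2. Slc1a2, the main glutamate transporter of the forebrain (chromosome 2, 102658239 to 102790784), was at 4766, 3131 and 4491 CPM in adult control and at 673, 388 and 628 CPM in stroke. The highest stroke library was thus well below the lowest control, and the log2 fold change was -2.87 (SE 0.37, edgeR adjusted p = 0.00219), a call that held in all 6 fits. The second glutamate transporter, Slc1a3, went from 185, 209 and 340 CPM to 60.7, 56.6 and 53.9 CPM (-2.10) and the bicarbonate transporter Slc4a4 from 200, 139 and 315 CPM to 35.9, 62.6 and 39.5 CPM (-2.24).

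Among the astrocyte markers, the gap junction genes had the largest falls. Gja1, or connexin 43, which couples astrocytes into a network, was at 79.5, 41.4 and 82.2 CPM in adult control and at 7.66, 0.480 and 1.303 CPM in stroke (-4.42, SE 0.83). Gjb6, or connexin 30, went from 76.8, 39.5 and 33.2 CPM to 2.42, 2.27 and 0.923 CPM (-4.73, SE 0.82). Not every marker of the cell type was lower. Glul, the glutamine synthetase, was at 1558, 1967 and 1484 CPM against 1940, 1621 and 1460 CPM (0.00, SE 0.31), and Aqp4, the water channel of astrocyte end feet, at 62.3, 52.0 and 74.6 CPM against 109, 66.4 and 75 CPM (0.41, SE 0.54). Gfap, the intermediate filament of reactive astrocytes, was at 2.02, 2.36 and 8.33 CPM against 30.2, 14 and 37.6 CPM without passing (2.71, SE 0.68, edgeR adjusted p = 0.0919). Glul is also made by oligodendrocytes, which these libraries hold, and the part of those cells in its value was not tested.

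Several further genes that fell are known from astrocytes, among other cells. Rapgef4, a cyclic AMP sensor also known as Epac2, went from 308, 267 and 446 CPM to 67.5, 47.5 and 69.2 CPM (-2.47, SE 0.35). Gpc5, a cell surface proteoglycan, went from 37.1, 58.0 and 65.5 CPM to 3.66, 6.50 and 4.89 CPM (-3.41, SE 0.49), Fam107a from 246, 144 and 89.1 CPM to 16.3, 8.71 and 14.6 CPM (-3.60, SE 0.50), and Slc30a10, a manganese exporter, from 21.7, 12.3 and 17.6 CPM to 1.35, 1.86 and 0.869 CPM (-3.65, SE 0.52). These 4 and Slc1a2 were the 5 lower genes that kept their call in every fit with 1 library left out. Slco1c1, a thyroid hormone transporter of astrocytes and brain vessels, fell by 5.12 on the log2 scale, and the neurotensin receptor Ntsr2 fell by 2.88. S1pr1, a sphingosine phosphate receptor, went from 73.0, 75.4 and 101 CPM to 10.22, 10.6 and 17.6 CPM (-2.70), and Acsl6, which activates long-chain fatty acids, from 64.5, 82.6 and 94.2 CPM to 19.0, 13.9 and 5.16 CPM (-2.66).

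Reactive astrocyte genes, those that astrocytes switch on after injury, had 3 of 22 tested members called higher and none lower, with a median of -0.20. Without adult control 1 or any 1 stroke library, 1 was called, and 2 with the 45S library class. Serpina3n, a secreted serine protease inhibitor (chromosome 12, 104406646 to 104414334), was at 18.9, 23.9 and 3.54 CPM in adult control and at 2809, 3493 and 2344 CPM in stroke. Its log2 fold change of 7.53 (SE 0.66, edgeR adjusted p = 9.73e-05) kept its call in all 6 fits, and reads of other members of the Serpina3 cluster may be counted with it. Vim, a filament protein (3.04), went from 3.65, 16.6 and 4.68 CPM to 73.1, 59.0 and 75.4 CPM, and Cxcl10 is described above. Lcn2 and Timp1, which mark strongly reactive astrocytes, were below 1.5 CPM in every library, and Cd44 was at 3.17, 0.646 and 10.4 CPM against 46.7, 48.3 and 45.9 CPM (3.35, edgeR adjusted p = 0.0866).

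**Figure D3:**
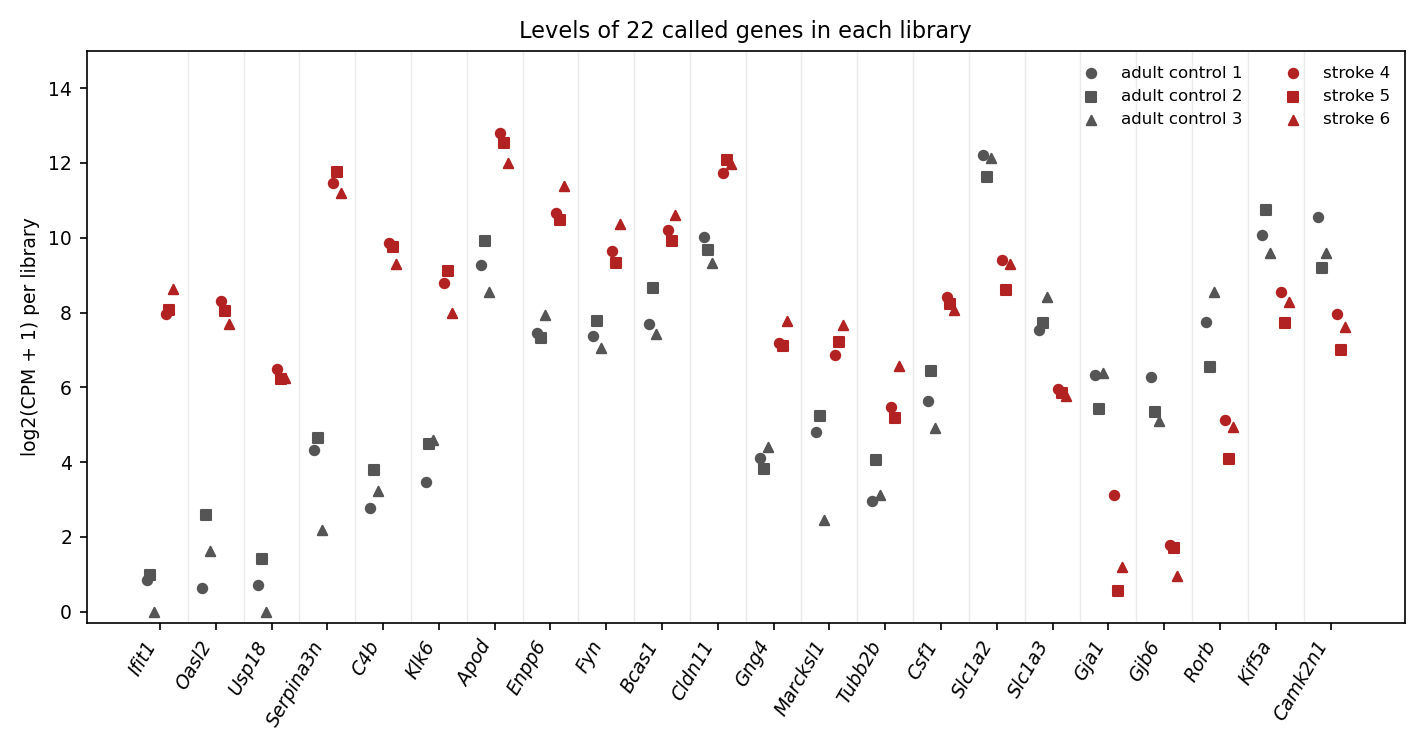
Level of 22 called genes as log2(CPM + 1), with 1 point per library, adult control in grey and stroke in red. No stroke point lies within the range of the adult control points for any of these genes, and Slc1a2 stays abundant in stroke at 388 CPM or more while Gja1 and Gjb6 fall below 8 CPM.

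Of 20 genes known from oligodendrocytes in injured or inflamed white matter, 7 rose and none fell, with a median of 2.42. The background over all tested genes was 0.486% called higher and 0.218% called lower. This list too was chosen with earlier results of these data known. The 7 that rose were Serpina3n, C4b, H2-D1, H2-K1, Fos, Klk6 and Apod, several of which other cell types also make. Without adult control 1, 3 of the 20 were called, and 4 with the 45S library class in the fit. Klk6, a secreted protease of oligodendrocytes (chromosome 7, 43824438 to 43832027), was at 10.07, 21.4 and 23.3 CPM in adult control and at 444, 550 and 254 CPM in stroke (4.52, SE 0.81, edgeR adjusted p = 0.0214). Apod, a lipid carrier, was among the most abundant called genes, at 617, 972 and 370 CPM against 7192, 5935 and 4126 CPM (3.14, SE 0.48). Il33, an alarmin of oligodendrocytes, was at 893, 1027 and 1199 CPM against 2991, 2150 and 1521 CPM and did not pass (1.09, SE 0.51).

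Among 25 markers of mature oligodendrocytes and myelin, 2 rose and none fell (median 0.94): Apod, and Cldn11, the tight junction protein between myelin layers. Cldn11 went from 1039, 818 and 642 CPM to 3410, 4285 and 4005 CPM (2.23, SE 0.34, edgeR adjusted p = 0.00737) and kept its call in all 6 fits. The core myelin genes did not pass. Mbp stood at 1537, 2510 and 1044 CPM against 3484, 3284 and 3780 CPM (1.05, SE 0.36), and Mobp had a value of -0.04 (SE 0.39). Without adult control 2, 8 of the 25 were called higher, and 1 without adult control 1. The summed share of these markers overlapped between the groups.

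Of 20 precursor and committed precursor markers, 4 rose and none fell, with a median of 1.39. Enpp6, which marks newly forming oligodendrocytes (chromosome 8, 46939197 to 47096762), was at 174, 157 and 244 CPM in adult control and at 1631, 1413 and 2657 CPM in stroke (3.31, SE 0.64, edgeR adjusted p = 0.0298). Fyn, a kinase that starts myelination, went from 166, 217 and 131 CPM to 795, 645 and 1317 CPM (2.42, SE 0.34) and kept its call in all 6 fits. Bcas1, of early myelinating cells, went from 205, 401 and 171 CPM to 1177, 959 and 1566 CPM (2.25), and Bmp4 from 27.6, 48.6 and 30.9 CPM to 218, 120 and 269 CPM (2.50). Gpr17, another gene of the committed stage, was at 207, 681 and 95.7 CPM against 1407, 1148 and 1765 CPM and did not pass (2.13, SE 0.68). Among markers of the dividing precursor, Pdgfra was at 584, 994 and 326 CPM against 312, 291 and 449 CPM (-0.86, SE 0.39), Cspg4 had -0.45 (SE 0.93), and neither passed. The summed share of the list was 0.555 to 0.930% in adult control and 1.15 to 1.8% in stroke, and its part in the 4 calls was not tested. Without 1 library, 1 to 8 of the 20 were called, fewest without adult control 1, stroke 4 or stroke 6. Outside the lists, Nkx2-2 (2.36) and Zfp488 (1.83), transcription factors of oligodendrocyte differentiation, rose too.

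Genes of growing axons and young neurons had 4 of 32 tested members called higher and none lower, with a median of 1.00. Gng4, a G protein gamma subunit (chromosome 13, 13784059 to 13827895), was at 16.4, 13 and 20.3 CPM in adult control and at 144, 137 and 219 CPM in stroke. Its log2 fold change was 3.33 (SE 0.37, edgeR adjusted p = 0.000636), and it was the only one of the 4 to keep its call in all 6 fits. Without adult control 1, stroke 4 or stroke 5, 1 of the 32 was called. Marcksl1, an actin regulator at the membrane, went from 27.1, 36.5 and 4.45 CPM to 115, 147 and 202 CPM (2.76), and Tubb2b, a tubulin of migrating neurons, from 6.78, 15.8 and 7.76 CPM to 43.6, 35.4 and 94.7 CPM (2.51). Igfbpl1 had 2, 1 and 0 counts in adult control and 70, 93 and 28 in stroke, a ratio of 60.2 after scaling with a 95% interval of 20.3 to 294 for counting error only. Gap43, the classic growth cone protein, was at 24.2, 11.3 and 25.5 CPM against 48.0, 18.2 and 27.3 CPM (0.62, SE 0.40, edgeR adjusted p = 0.469), and the groups overlapped. Sox11 had a value of 0.85 (SE 0.34) and did not pass. Which cells of the sorted samples the RNA of this list came from was not tested.

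All 13 tubulin isotypes had a positive value, with a median of 1.37, and only Tubb2b was called. Tuba1a, the alpha tubulin of growing neurites, was at 202, 535 and 124 CPM against 1528, 1736 and 2362 CPM, with no overlap, and just missed the threshold (2.71, SE 0.60, edgeR adjusted p = 0.0551). The cell source of the tubulin RNA was not tested. Of 32 regeneration-associated genes, known from neurons that regrow axons, Tubb2b and Csf1 rose. None was called without adult control 1, stroke 4 or stroke 5 or with the 45S library class, and 1 without stroke 6. Csf1, a growth factor for microglia, went from 49.0, 85.8 and 29.1 CPM to 338, 297 and 265 CPM (2.46, SE 0.40). The injury factors Atf3 (0.86), Jun (1.05) and Klf6 (0.20) did not pass, and Sprr1a had 0 CPM in 2 libraries of each group.

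Of 17 excitatory cortical neuron markers, 2 fell and 15 had a negative value, with a median of -1.34. Among those that fell, Rorb, a transcription factor of layer 4, went from 215, 91.8 and 373 CPM to 34.2, 16.0 and 29.6 CPM (-3.09, SE 0.56). Slc17a7, the vesicular glutamate transporter, was at 57.7, 47.7 and 51.8 CPM against 50.1, 53.1 and 45 CPM (-0.08, SE 0.58). The summed share of the excitatory list was 0.176, 0.0884 and 0.112% in adult control and 0.0545, 0.0597 and 0.0488% in stroke, with no overlap. None of the 16 pan-neuronal markers was called (median -0.60), and Map2 stood at 293, 199 and 377 CPM against 249, 235 and 288 CPM. Adult control 2 was the lowest control in 24 of the 39 genes called lower and the highest in 53 of the 87 called higher. The matching shares over all tested genes were not taken, so these counts cannot be read as a trait of the called genes. Syt1, a calcium sensor of synaptic vesicles that was not called, was at 252 CPM in adult control 2. It was at 823 and 513 CPM in the other controls and at 149 to 246 CPM in stroke. The pan-neuronal share of adult control 2 lay within the range of stroke, and its part in these results was not tested. Of the excitatory markers, 1 was called without adult control 3, none without adult control 1, without any 1 stroke library or with the 45S library class in the fit, and 4 without adult control 2.

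Further neuronal genes among the 39 that fell were signalling and transport genes. Mef2c, an activity-dependent transcription factor, went from 1029, 223 and 848 CPM to 170, 120 and 150 CPM (-2.26, SE 0.43), and Camk2n1, an inhibitor of CaM kinase II, from 1502, 587 and 771 CPM to 247, 128 and 196 CPM (-2.33, SE 0.38). The kinesin heavy chains Kif5a (-1.98) and Kif5c (-1.63), which carry cargo along axons, went from 1074, 1698 and 776 CPM to 375, 210 and 313 CPM and from 518, 514 and 366 CPM to 180, 141 and 132 CPM. They were the 2 called genes of 16 neurofilament, axonal microtubule and kinesin genes. Of 35 potassium channel genes, 30 had a negative value and 2 fell: Kcnh7 (-2.32), and Kcnc2 (-2.92), a fast channel of interneurons, which went from 68.6, 15.0 and 59.3 CPM to 8.46, 4.71 and 5.70 CPM. In both lists none was called without adult control 1, without any 1 stroke library or with the 6 libraries alone, and no potassium channel gene with limma-voom or with the 45S library class. Cnr1, the cannabinoid receptor, went from 76.4, 35.4 and 110 CPM to 16.3, 12.4 and 21.3 CPM (-2.15).

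Receptor and synapse lists had no called member. The 14 GABA receptor subunits had a median of -1.03 with 12 negative values, the 24 glutamate receptor subunits a median of -0.55, the 32 genes of synaptic vesicle release -0.52, and the 26 sodium and calcium channel genes -0.73. Gabrb2, a subunit of synaptic GABA receptors, stood at means of 271 CPM in adult control and 64.2 CPM in stroke and did not pass (-2.08, SE 0.46, edgeR adjusted p = 0.0574). Interneuron markers, 14 of which were tested, also had no call, with Gad1 at 13.1, 26 and 14.1 CPM against 6.83, 12.8 and 15.1 CPM.

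**Figure D4:**
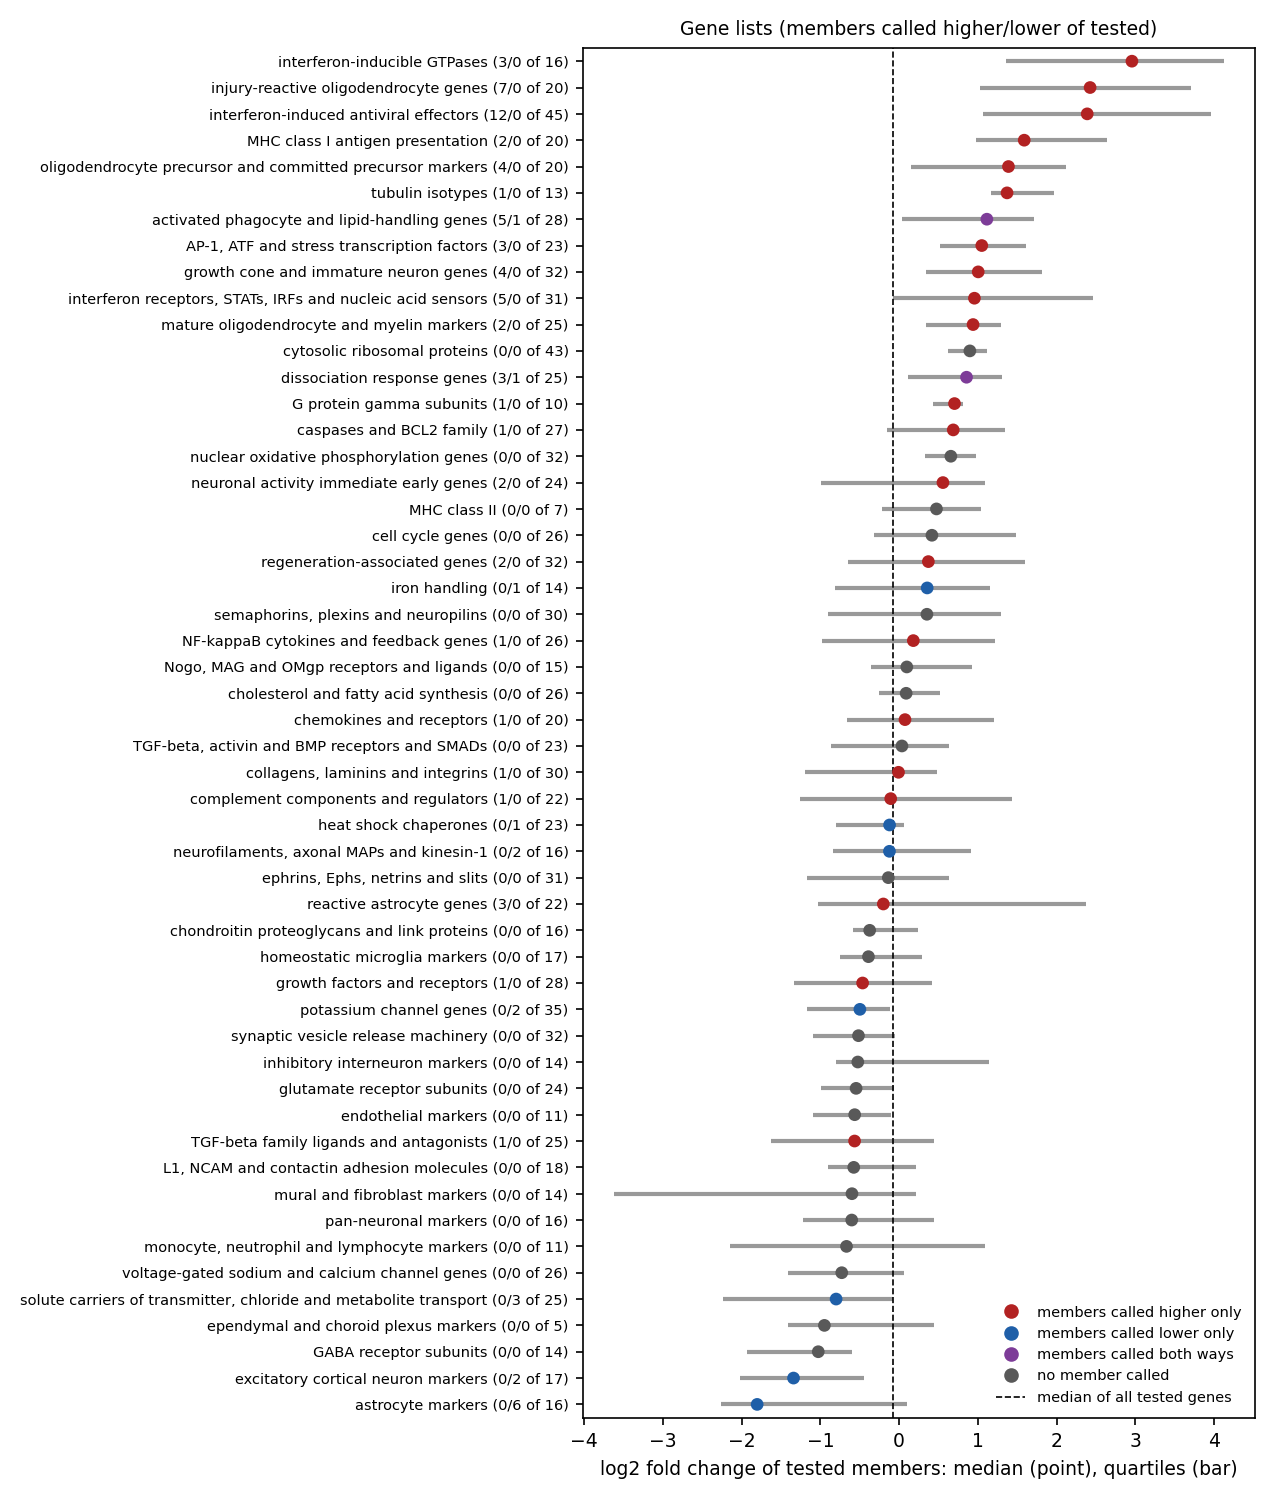
Median (point) and quartiles (bar) of the log2 fold change of each gene list's tested members, ordered by median, with the members called higher and lower given after each name. The dashed line is the median of all tested genes (-0.08); interferon-inducible GTPases lie at the top (2.96) and astrocyte markers at the bottom (-1.8).

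Stress and activity genes rose in small numbers. Of 23 AP-1, ATF and stress factors, 3 rose and none fell (median 1.05): Gadd45g (4.33), a growth arrest gene, Fosl2 (2.03) and Fos (1.86). Fos was at 155, 336 and 173 CPM in adult control and at 760, 727 and 925 CPM in stroke. Fos and Fosl2 were also the 2 called genes of 24 neuronal immediate early genes. Fos, Zfp36 (1.74) and Cebpd are among 25 genes that respond to tissue dissociation, of which 3 rose and Hspa1b fell (-2.78). In these 3 lists no member was called higher without adult control 1, without any 1 stroke library, with the 6 libraries alone or with the 45S library class in the fit. The summed share of that list was 0.303 to 0.546% in adult control and 0.505 to 0.654% in stroke, and the part of dissociation in these calls was not tested. Hspa1b, an inducible HSP70, went from 40.2, 46.3 and 52.4 CPM to 6.46, 11.11 and 2.55 CPM, and reads can be shared with its copy Hspa1a. Cytosolic ribosomal protein genes had 42 of 43 positive values (median 0.90) with none called.

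Among called genes outside the lists, several kept their call in all 6 fits. Aldh1l2, a mitochondrial folate enzyme, went from 14, 32.1 and 27.3 CPM to 237, 242 and 266 CPM (3.34, SE 0.37, edgeR adjusted p = 0.000636). Pik3r3, a regulatory subunit of PI3 kinase, went from 144, 164 and 129 CPM to 1121, 861 and 1091 CPM (2.81, SE 0.34, edgeR adjusted p = 0.00147). Piezo2, a mechanosensitive channel best known from touch neurons, went from 4.60, 2.36 and 1.03 CPM to 62.5, 62.0 and 51.0 CPM (4.43, SE 0.57, edgeR adjusted p = 0.00219). In each of these 3 genes the stroke libraries lay close together and well above every control.

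Further genes that rose are known from proteolysis, the cytoskeleton and the matrix, among other roles. Bace2 (4.52), a protease related to the beta-secretase, was at 0.753, 1.84 and 0.114 CPM against 19.5, 21.8 and 24.5 CPM. Capn6, which stabilises microtubules, rose by 3.78, Parp3, of DNA break repair, by 4.09, and Col6a2, a collagen chain, by 3.77. Sfrp1, a secreted Wnt modulator, went from 13.8, 10.5 and 0.798 CPM to 95.9, 72.1 and 87.6 CPM (3.33), and Parvb, a focal adhesion protein, from 35.6, 57.7 and 3.31 CPM to 354, 344 and 542 CPM (3.68). Col9a3 (2.49) and Col20a1 (3.32), collagen genes, Prom1 (1.87) and Hpgd, which inactivates prostaglandins (2.76), rose as well. The neurosteroid enzyme Srd5a1 (1.98) and the sterol enzyme Hsd17b7 (1.93) rose, while none of 26 cholesterol and fatty acid synthesis genes was called.

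Some lower genes with the largest fitted values rest on adult control 3. Mir6390 had 69, 36 and 353 counts in adult control and 0 in each stroke library, which is at least 162-fold lower against a floor of 3 counts over the stroke group, and its reads cannot be told from those of a longer transcript. Tfr2, a transferrin receptor, was at 1.67, 0.720 and 30.8 CPM against 0.0690, 0.0641 and 0 CPM, Svep1 at 7.22, 4.92 and 73.7 CPM against 0.311, 0.737 and 0.652 CPM, and Kcnh4 at 7.41, 4.57 and 50.1 CPM against 1.00, 0.512 and 1.09 CPM. All 4 lost their call without adult control 3. In all, 14 of the 39 lower genes and 19 of the 87 higher genes lost it without that library. Ranbp3l was more even, at 11.4, 5.52 and 15.4 CPM against 0.0690, 0.0320 and 0.109 CPM (-7.23, SE 1.36), and kept its call without adult control 3.

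The genes just outside the threshold, each with an edgeR adjusted p of 0.0536, were Igfbp7 (3.39), Klhl5 (1.58), Igsf10 (1.91), Helz2 (3.40), an interferon-induced helicase, and Slc7a11 (-3.68), the cystine transporter, at means of 59.3 CPM in adult control and 4.62 CPM in stroke. Gdf10 itself was at 0.595, 0.522 and 0 CPM in adult control and at 0, 0.160 and 0 CPM in stroke, and a difference was not detectable at this depth (-2.68, SE 1.67, edgeR adjusted p = 0.452). Among 25 TGF-beta family ligands and antagonists, the family of GDF10, Bmp4 was the 1 called gene.

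The stroke libraries labelled with GDF10 siRNA gave a further view of the same genes, with their own 3 libraries but set against the same controls. Ifit1 was at a mean of 140 CPM there, Serpina3n at 528 CPM, C4b at 433 CPM, Slc1a2 at 948 CPM and Gja1 at 5.97 CPM. Of the 126 called genes, 113 had a siRNA-labelled mean between those of adult control and stroke. The genes were selected on the stroke libraries, so this count describes them and is not a test. Among the exceptions, Gpnmb had a mean of 221 CPM in the siRNA-labelled libraries and 69.4 CPM in stroke. The means were 180 and 54.0 CPM for Spp1, 39.7 and 19.3 CPM for Cxcl10 and 361 and 281 CPM for H2-D1. Mertk was at a mean of 87.2 CPM in the siRNA-labelled libraries and 84.6 CPM in adult control. Set directly against stroke, 1 gene of the 17909 was called with edgeR. It was Gng4, at a mean of 23 CPM in the siRNA-labelled group against 167 CPM in stroke (log2 difference of stroke over siRNA-labelled 2.85, adjusted p = 0.0230). The siRNA-labelled libraries carry the numbers 1 to 3 and the stroke libraries 4 to 6, so here too a batch along the numbers and the group cannot be told apart. The 45S share was 0.329, 0.304 and 2.72% in siRNA-labelled 1, 2 and 3, against 2.11 to 2.44% in stroke, and its part was not tested.

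The authors' deposited table of the same comparison lists 702 genes at a false discovery rate under 0.05, of which 269 are higher and 433 lower in stroke. All 126 genes called here are among them, which is 17.9% of theirs. Counts of calls varied with the fit: DESeq2 called 418 higher and 875 lower, limma-voom 184 and 45, and edgeR on the 6 libraries alone 33 and 10.

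**Figure D5:**
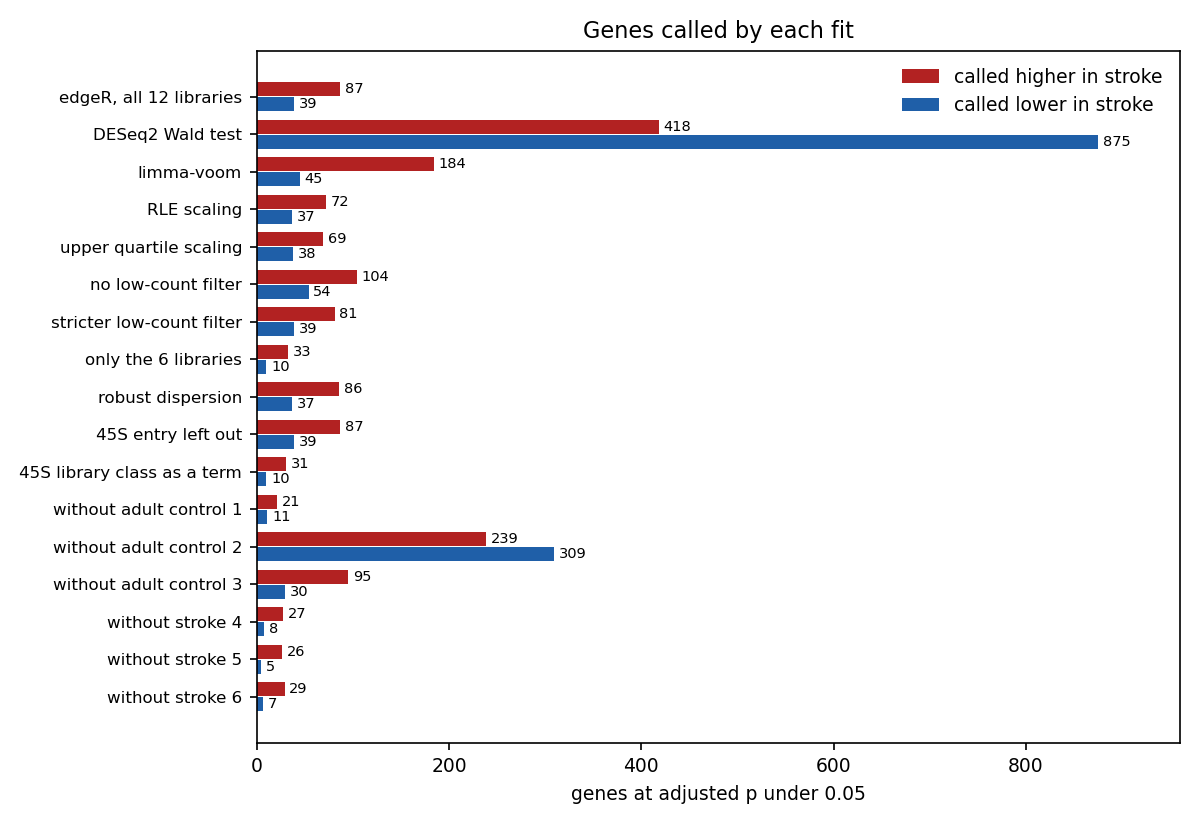
Genes called higher (red) and lower (blue) in stroke by each fit, as bars that start at 0. The count falls to 21 to 29 higher genes when adult control 1 or any 1 stroke library is left out and rises to 239 higher and 309 lower genes without adult control 2.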

How the data were processed

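Per the labels' protocols, a Zymo RNA-Microprep kit gave total RNA, the Ovation RNA-seq System v2 amplified it, and paired reads of 69 bp were sequenced. The submitters' processing notes name the build mm10, CASAVA 1.8.2 and edgeR. Which aligner, counting tool, annotation and strand setting were used is not given in the sources used here, so antisense and overlapping genes cannot be separated. The authors deposited raw read counts per gene and library, which were tested here. The authors' deposited log2 fold changes and false discovery rates (adjusted p-values) were used only to count their calls.

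Counts were fitted in R 4.3.3 with edgeR 4.0.16: filterByExpr by group (17909 of 23253 genes kept), TMM factors, all 12 libraries with 1 mean per group so that the groups share 1 estimate of the spread, and quasi-likelihood F tests with Benjamini-Hochberg adjustment over all genes tested, called at adjusted p under 0.05. Levels are CPM scaled with the TMM factors. The SE was obtained from each test as the size of the log2 value over the root of F. DESeq2 1.42.0 and limma 3.58.1 were alternatives. Library totals ran from 10517638 to 36009796 counts, and amplified reads are not independent molecules. Positions come from RefSeq (22921 genes matched), and a count of 0 was bounded by 3 counts over the group.

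The gene lists were chosen with earlier results of these data known. Named genes were those that kept their call in all 6 fits without 1 library, the 15 largest called changes per direction (mean of at least 5 CPM, no overlap, no predicted genes), called list members or else the 2 with the smallest p, cell type markers, the 5 genes nearest above the threshold, Gdf10 and Gap43. Other called genes were named with their level or fold, and a few uncalled list members as examples after their values were seen. Mitochondrially encoded genes were not analysed here, and some genes that the rule names are not reported here.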

Additional observations from a re-analysis of the deposited data

How the results depend on the processing

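No paired analysis was possible because adult control and stroke libraries share no replicate numbers (1 to 3 against 4 to 6). The 87 higher and 39 lower calls became 418 and 875 with DESeq2, 33 and 10 with the 6 libraries fitted alone, and 31 and 10 with the 45S library class as a term, an alternative chosen after seeing the data. limma-voom gave 184 higher calls. Without 1 library, the calls ranged from 21 to 239 higher and from 5 to 309 lower. The cause was not tested. RLE scaling, upper quartile scaling, robust dispersion, leaving out the 45S entry, and a stricter or no filter on low counts kept both counts within 1.5 times. The 126 called genes kept their direction under every alternative that tested them. Of the named genes that were not called, Cd74 ranged from -0.546 without stroke replicate 4 to 1.70 without adult control replicate 2, and Ttr, a choroid plexus gene with almost no counts, turned to 4.14 with the 45S library class. Counts limit low genes most: Gdf10 had 15, 21 and 0 counts in adult control and 0, 5 and 0 in stroke.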
